A study of Mus musculus with 45 samples.

Results

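The comparison described here is that of wild-type mouse neural progenitors with the same kind of cell after 2 days in a medium that contains serum, LIF and doxycycline, with no reprogramming factor present. Its members are 7 of the 45 libraries of the series, chosen by their labels: 4 of wild-type progenitors (2 R9, 2 R10) and 3 of wild-type cells at day 2 (1 R9, 2 R10). The series used long nanopore reads to follow how such progenitors are reprogrammed to pluripotency, and the cells described here are its control without factors. Every group used here goes back to O4G, an Oct4-GFP reporter line of embryonic stem cells that was itself made from R1 cells. R9 and R10 name the 2 nanopore library chemistries of the series.

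Progenitors were grown on Geltrex in NPC medium, which is N2B27 with 20 ng/mL EGF, 20 ng/mL FGF-2 and heparin, and were dissociated with Accutase. The day 2 cells were seeded on gelatin in NPC medium with 2% serum, moved on the next day to FBS-LIF with 15% serum and 1 µg/mL doxycycline, and collected with TrypLE. The protocol text is written for the transfected lines of the series and carries no separate version for wild-type cells. Serum, LIF, doxycycline, the loss of EGF, FGF-2 and the N2B27 supplements, the coating, the seeding density and the enzyme changed together and cannot be told apart. The OKMS and OKS lines used as a comparison further on are stably transfected with reprogramming factors, with genotypes labelled OKMS-Luciferase-AS and OKS-Luciferase-AS, and received the same medium for the same time, with 1 library of each line, chemistry and time. R9 libraries were direct cDNA of poly(A)+ RNA, and R10 libraries were PCR cDNA made from total RNA. Nothing in the labels says whether replicates are separate cultures or whether R9 and R10 libraries of 1 condition share RNA, so p-values measure only the spread between these libraries.

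As background, EGF and FGF-2 keep neural progenitors dividing through their receptor tyrosine kinases and ERK. LIF acts through its receptor with gp130 on JAK kinases and STAT3, and BMPs act through SMAD proteins on the Id genes. Both pathways are known to push neural progenitors towards astrocytes, of which Gfap is the classical marker. Serum holds lipids, lysophospholipids and BMP activity. Lysophospholipids signal to the actin cytoskeleton and to the co-activators of SRF and TEAD, and sterols taken up with lipoproteins hold back the genes of sterol synthesis.

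Depth ranged from 706838 to 1033046 reads in the 3 R9 and from 2554516 to 3485194 in the 4 R10 libraries. Values are read counts scaled to a common library total (CPM), and differences are those of log2(CPM + 1), day 2 minus progenitor. Correlations of that scale over genes were 0.942 between the R9 progenitors, 0.970 between the R10 progenitors and 0.934 between the R10 day 2 libraries, and 0.763 to 0.804 between groups within R10. Within R10, the libraries numbered 2 stood apart from those numbered 3 in both groups. Malat1, a nuclear RNA, was at 7992 CPM in progenitor replicate 2 and 1882 in replicate 3, and at 8133 in R9 and 72938 and 13043 in R10 at day 2. Mitochondrial reads were 0.273% and 0.153% of all reads in these progenitors and 0.319% and 0.165% at day 2, and 0.493 to 0.884% in R9. Mmp2, a matrix protease chosen after its values were seen, was at 8.26 and 149 CPM in R10 progenitor replicates 2 and 3 and at 0.391 and 56 at day 2. List counts below are therefore given with these 7 libraries and, beside them, without both R10 libraries numbered 2. The lists and their members were chosen with earlier results of these data known. Their shares beside those of all genes are therefore descriptions and not tests. Where day 2 libraries are left out of a list or class count, a gene needed a CPM of at least 1 in 2 libraries instead of 3, so that genes seen only at day 2 could still pass. Both the fit and this filter were added after seeing the data.

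With all 7 libraries and a term for the chemistry, limma called 4670 of 14674 genes (31.8%), 2639 higher (18%) and 2031 lower (13.8%) at day 2. A call needs a Benjamini-Hochberg adjusted p under 0.05 and a log2 difference of at least 1. Without both R10 libraries numbered 2 it called 3742 of 15042 (2083 higher, 1659 lower), and 3470 of these were among the 4670. With the filter kept at 3 libraries the count was 3514 of 13287. Within R10 alone it called 3940 of 14688 (26.8%), a count that fell to 1356 without progenitor replicate 2 and 1253 without progenitor replicate 3. The groups did not overlap in either chemistry for 7665 genes (52.2%), 28.5% of all tested being higher and 23.7% lower at day 2. Within R9 alone, where day 2 is 1 library, limma called 1562 of 16625 genes (9.4%), 1472 higher (8.85%) and 90 lower (0.541%). That split rests on the scaling and the test, since 94.2% of the R9 calls were higher here, 78.4% after quantile normalization, 32.7% after median centring, 52.7% with edgeR and 47.8% with DESeq2. R9 values are therefore given as levels beside those of R10. The R9 and R10 differences shared their sign for 11222 of the 13921 genes that both could test, and for all 4627 called ones among them, whose choice used both chemistries. A test between the chemistries rests on 1 R9 day 2 library, so that a missing call does not show that they agree. Top2a differed by 3.42 between them and was not called. No gene of 14674 had a called difference between the chemistries in limma, where 796 had an unadjusted p under 0.05. On the reads, edgeR and DESeq2 also called 0 (463 and 205 at an unadjusted p under 0.05).

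**Figure D1:**
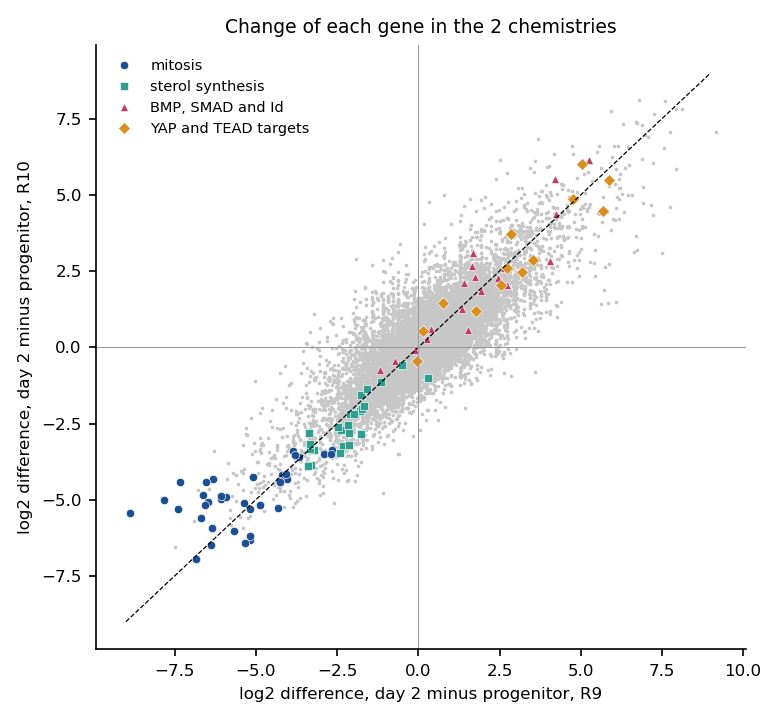
Log2 difference (day 2 minus progenitor, log2(CPM + 1) scale) of each gene in R9 (horizontal) and R10 (vertical), with 4 gene lists in colour and the line of equal change dashed. All 37 mitosis genes lie at the lower left in both chemistries, and the called BMP and YAP list members lie at the upper right.

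Here and within lists, the largest changes were sought among called genes with the same sign in R9 and R10 and no overlap in either chemistry. Their lack of overlap was thus set by that choice. The 10 largest rises of annotated genes were those of Ccn5, Scg2, Clu, Lbp, Gfap, Fbxo2, Crygs, C3, Apoe and Fmod, with log2 differences from 7.10 to 7.94. Most of them encode secreted or matrix proteins. Ranges below run over the 4 progenitor and the 3 day 2 libraries. Clu (clusterin, a secreted chaperone; ENSMUSG00000022037.15, chromosome 14, 65968531 to 65981549) was at 9.36 and 3.87 CPM in the R9 and 2.54 and 3.16 in the R10 progenitors, and at 1385 in R9 and 1097 and 972 in R10 at day 2. All day 2 libraries lay far above every progenitor library, and the log2 difference was 7.89 ± 0.27 (SE), limma adjusted p = 9.69e-08. Apoe, a lipid-carrying apolipoprotein (chromosome 7, 19696253 to 19699782), was at 70.9 and 10.6 CPM in the R9 and 16.8 and 16.9 in the R10 progenitors, and at 3022 in R9 and 2527 and 3488 in R10 at day 2. Its groups did not overlap, and 1 R9 progenitor library held more than the other 3 (log2 difference 7.11 ± 0.49 (SE), limma adjusted p = 3.01e-06). Lbp, which binds bacterial lipopolysaccharide, rose from 0 to 2.22 CPM in progenitors to 338 to 723 at day 2, and C3, the central component of complement, from 0 to 2.22 CPM in progenitors to 179.7 to 511 at day 2.

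The 10 largest falls were those of Pclaf, Ube2c, Top2a, Cenpa, Pbk, Nusap1, Prc1, Ccnb2, Aurkb and Mki67, with log2 differences from -5.99 to -6.93. All 10 act in DNA replication or in mitosis. Ube2c, which hands ubiquitin to mitotic cyclins (ENSMUSG00000001403.13, chromosome 2, 164749799 to 164778822), was at 695 and 524 CPM in the R9 and 654 and 700.4 in the R10 progenitors, and at 4.24 in R9 and 3.91 and 5.27 in R10 at day 2. Each day 2 library lay far below every progenitor library (log2 difference -6.90 ± 0.19 (SE), limma adjusted p = 3.56e-08). Top2a, which untangles DNA (chromosome 11, 98992947 to 99024221), was at 473 and 459 CPM in the R9 and 597 and 544 in the R10 progenitors, and at 0 in R9 and 17.6 and 8.24 in R10 at day 2. Its R9 day 2 library held no read. Mki67, the proliferation marker Ki-67, fell from 170.1 to 257 CPM in progenitors to 0.329 to 4.24 at day 2. In bulk RNA, fewer cells of a kind and less RNA in each cell cannot be told apart, for these and all genes below.

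**Figure D2:**
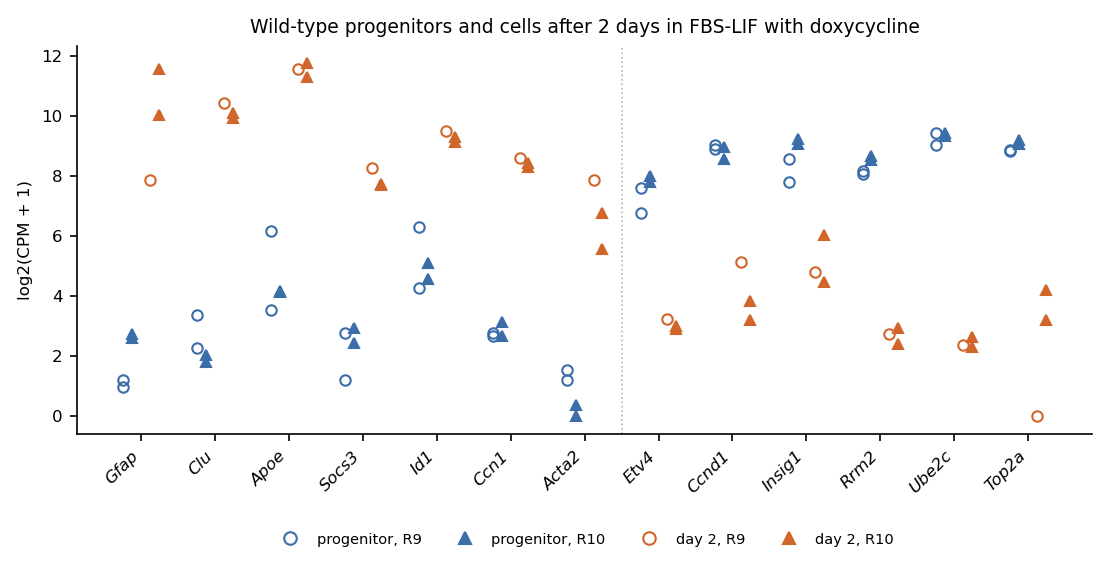
Level of 13 genes in each of the 7 libraries, as log2(CPM + 1), with progenitors in blue and day 2 in orange, R9 as open circles and R10 as filled triangles. The 7 genes left of the dotted line were higher in every day 2 library than in any progenitor library, and the 6 on the right were lower.

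Mitotic genes fell as a whole. All 37 members of the mitosis list were called lower, beside 13.8% of all genes tested, with a list median of -5.26 beside 0.12 for all genes. Without both R10 libraries numbered 2 the count was again 37 of 37. The summed level of the list was 7360 and 6960 CPM in the R9 and 6538 and 6768 in the R10 progenitors, and 214 in R9 and 189 and 183 in R10 at day 2. Given as progenitor against day 2 ranges, the mitotic cyclins Ccnb1 (169 to 215 against 3.52 to 4.94 CPM) and Ccna2 (104 to 174 against 0 to 4.7 CPM), their kinase Cdk1 (405 to 643 against 16.8 to 32.5 CPM), the kinases Plk1 (209 to 283 against 1.98 to 5.66 CPM) and Aurkb (97.8 to 122 against 0 to 1.57 CPM) and the activator of the anaphase-promoting complex Cdc20 (221 to 288 against 2.31 to 4.24 CPM) all fell. The smallest fall in the list was that of Ckap2, a spindle protein, with a log2 difference of -3.08.

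Genes of DNA replication fell too, 33 of 34 (13.8% of all genes), with a list median of -3.36, and 33 of 34 without both R10 libraries numbered 2. Rrm2, the regulated subunit of ribonucleotide reductase (chromosome 12, 24705580 to 24714161), was at 286 and 270.1 CPM in the R9 and 367 and 404 in the R10 progenitors, and at 5.66 in R9 and 6.65 and 4.28 in R10 at day 2. Tk1, thymidine kinase, fell from 235 to 507 CPM in progenitors to 5.66 to 13.7 at day 2, and Pclaf, which binds the replication clamp PCNA, from 381 to 573 CPM in progenitors to 1.41 to 7.05 at day 2. The 6 genes of the MCM helicase ring, Mcm2 to Mcm7, had log2 differences between -4.06 and -2.20. Gins4 alone among the 34 was not called (48 to 89.6 against 35.6 to 52.7 CPM, log2 difference -0.56).

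The promoters of mitotic genes commonly hold a CHR element (TTTGAA), bound by the complex that keeps these genes off in resting cells, and CCAAT boxes (CCAAT). Of the 37 list members 32 had a RefSeq promoter window, taken as the one nearest to the start of their leading transcript, at any distance. For windows the leading transcript is the one with the highest mean level over the 7 libraries. Within the 250 bases before the start, 11 of these 32 (34.4%) held TTTGAA on either strand, beside 10% of 9851 tested genes with a window, and 24 of 32 (75%) held CCAAT, beside 37%. These counts are descriptions of letters in a window and not of binding sites, and both motifs were chosen with the falls known. The RefSeq start lay within 50 bases of the start of the leading transcript, a limit chosen after the values were seen, for 17 of the 32, of which 5 held TTTGAA (29.4%, beside 10.3% of 5029 such windows) and 14 CCAAT (82.4%, beside 40.7%). The 3 members with a match and the largest falls were Ube2c, Top2a and Prc1. For Ube2c the leading transcript starts 240 bases before the RefSeq start, so that its match lies inside that transcript, and its window is not shown. The windows of Top2a and Prc1 (RefSeq, GRCm38.p6; chr11:99024190-99024439, minus strand; chr7:80294226-80294475, plus strand) are shown 5′ to 3′, with each match to TTTGAA or its reverse complement in capitals. Counted from the RefSeq start, the matches end 173 and 17 bases before it in Top2a and 24 bases before it in Prc1. The leading transcripts start 32 and 8 bases before it, so that the second match of Top2a lies inside the leading transcript.
Top2a: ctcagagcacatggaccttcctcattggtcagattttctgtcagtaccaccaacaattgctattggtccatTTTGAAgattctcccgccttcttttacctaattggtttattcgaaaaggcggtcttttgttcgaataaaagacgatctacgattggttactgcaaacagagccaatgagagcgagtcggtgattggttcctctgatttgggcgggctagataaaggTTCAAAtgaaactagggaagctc
Prc1: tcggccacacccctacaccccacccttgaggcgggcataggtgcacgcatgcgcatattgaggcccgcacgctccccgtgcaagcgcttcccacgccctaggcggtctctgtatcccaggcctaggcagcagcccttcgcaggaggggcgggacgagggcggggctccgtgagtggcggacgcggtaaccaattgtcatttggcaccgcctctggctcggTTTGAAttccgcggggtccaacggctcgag

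Genes that control entry into the cycle went both ways, with 8 of 26 called higher and 11 lower, beside 18% and 13.8% of all genes, and 8 and 10 of 26 without both R10 libraries numbered 2. Ccnd1, cyclin D1, the mitogen-induced partner of CDK4, was at 526 and 482 CPM in the R9 and 379 and 499.8 in the R10 progenitors, and at 34 in R9 and 8.22 and 13.5 in R10 at day 2, with a log2 difference of -4.68 ± 0.29 (SE). Ccnd2 fell less (489 to 1529 against 339.5 to 656 CPM), while Ccnd3 had a difference of 0.13. The E2F genes E2f1, E2f2 and E2f3 and the pocket protein gene Rbl1 (15.2 to 50.3 against 0.659 to 2.83 CPM) fell, and Rb1, which holds E2F back, rose (7.94 to 20.3 against 22.4 to 87.7 CPM). Among CDK inhibitors, Cdkn2b (12.7 to 24.1 against 26.6 to 166 CPM), Cdkn2c (14.3 to 61.5 against 25.4 to 115 CPM) and Cdkn1b (15.2 to 65.5 against 30.5 to 204 CPM) rose, and Cdkn1a (431 to 704 against 68.5 to 209 CPM) and Cdkn2d (45.1 to 109.7 against 28.3 to 35.6 CPM) fell. Cdkn1b and Cdkn2c overlapped between day 2 and progenitors when R9 and R10 are pooled, but not within a chemistry. The stress-induced growth arrest genes Gadd45a, Gadd45b and Gadd45g rose, Gadd45b from 0.574 to 2.67 CPM in progenitors to 17.2 to 84.9 at day 2, while the groups of Gadd45a overlapped within R10 (6.35 to 38.7 against 21.1 to 260.3 CPM). Without the R9 day 2 library 4 genes of the list were called higher.

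**Figure D3:**
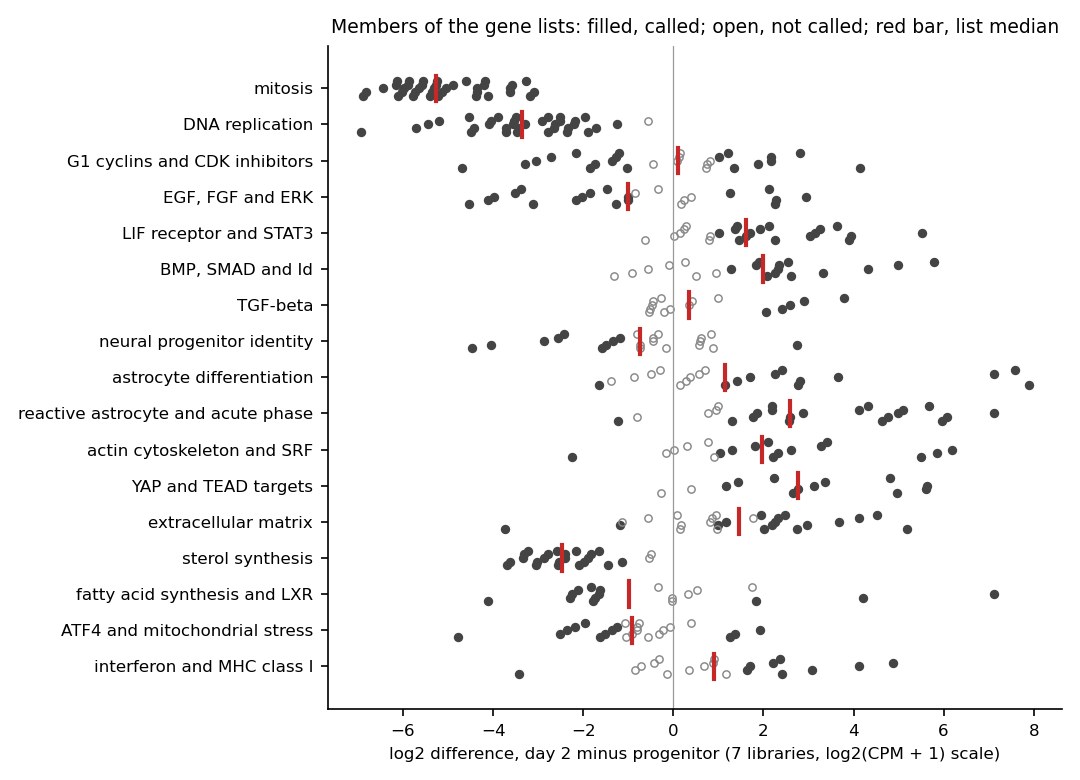
Log2 difference (day 2 minus progenitor) of each tested member of 17 gene lists, one row a list, with called members filled, others open and the list median as a red bar. Medians run from -5.26 for mitosis to 2.76 for YAP and TEAD targets, and the lists of G1 regulators and progenitor identity spread to both sides of 0.

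Of 23 genes of the EGF, FGF and ERK list, 13 were called lower, beside 13.8% of all genes, and 5 higher, a share near the 18% of all genes. The ETS factors Etv4, Etv5 and Etv1, known as outputs of FGF receptors, all fell. Etv4 (chromosome 11, 101765402 to 101804199) was at 108 and 193 CPM in the R9 and 255 and 222 in the R10 progenitors, and at 8.49 in R9 and 7.05 and 6.59 in R10 at day 2 (log2 difference -4.54 ± 0.28 (SE), limma adjusted p = 1.72e-06). The feedback inhibitors Spry1, Spry2, Spry4, Spred1, Spred2, Dusp4 and Dusp6 fell, Spry4 from 61.5 to 237 CPM in progenitors to 3.91 to 15.6 at day 2 and Dusp6 from 144 to 389 CPM in progenitors to 10.6 to 45.3 at day 2. Myc, the growth-promoting transcription factor, fell from 104 to 211 CPM in progenitors to 5.87 to 14.8 at day 2. The 5 that rose were the receptors Fgfr1, Fgfr2 and Fgfr3 (limma adjusted p = 0.0631 for Fgfr3 without the R9 day 2 library), the EGF family ligand Hbegf (17.4 to 42.8 against 145 to 338 CPM) and the phosphatase Dusp5 (1.43 to 4.01 against 9 to 29.7 CPM). Egfr had a log2 difference of -0.34 and Egr1, an immediate early gene, of 0.16, and neither was called. Without both R10 libraries numbered 2 the counts were 10 lower and 5 higher.

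Genes of the LIF pathway rose, 16 of 23 called higher and 0 lower, with a median of 1.61, where 18% of all genes were called higher. Socs3, the feedback inhibitor that STAT3 induces (chromosome 11, 117966079 to 117970984), was at 1.34 and 5.81 CPM in the R9 and 4.45 and 6.6 in the R10 progenitors, and at 306 in R9 and 211 and 206 in R10 at day 2. The 3 day 2 libraries were close to each other and each lay far above any progenitor library (log2 difference 5.52 ± 0.40 (SE), limma adjusted p = 4.22e-06). The shared receptor gp130 (Il6st) rose from 13.4 to 24.2 CPM in progenitors to 129 to 565 at day 2, and the IL-6 receptor gene Il6ra from 0 in all 4 progenitor libraries to 21.2 in R9 and 11.7 and 9.55 in R10 at day 2, at least 32.9-fold higher with the progenitors set at a floor of 3 reads in all. Such bounds, here and below, pool the reads of R9 and R10 in each group, with a floor of 0.357 CPM for the progenitors. They are not bounds within a chemistry, where fewer progenitor reads set a higher floor. Lifr, the specific receptor of LIF, had a difference of -0.62 and was not called (22.7 to 306 against 14.1 to 260.3 CPM). Among signal carriers Jak1, Jak2 and Stat3 rose, Stat3 from 46.8 to 96.2 CPM in progenitors to 147 to 237 at day 2. Targets that rose include Junb (4.59 to 17.4 against 75 to 81 CPM), Fos (2.01 to 7.74 against 34.3 to 46.7 CPM), Cebpd (1.72 to 13.6 against 17.8 to 129 CPM) and Klf5 (1.15 to 4.01 against 24.7 to 76.4 CPM). Klf4 did not pass (0.02). The count was 14 of 23 without both R10 libraries numbered 2, with 0 lower, and 11 without the R9 day 2 library.

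STAT proteins bind letters of the form TTCNNNGAA. In the 250 bases before the start, 2 of 19 genes of this list with a window held it on either strand (10.5%), as did 1 of 18 astrocyte genes (5.56%) and 5.59% of all 9851. Socs3 is shown as a called member with a match, in capitals (RefSeq, GRCm38.p6, chr11:117969367-117969616, minus strand), and its leading transcript starts 183 bases after the RefSeq start. No list member whose RefSeq start lay within 50 bases of its leading transcript's start held a match (0 of 8).
Socs3: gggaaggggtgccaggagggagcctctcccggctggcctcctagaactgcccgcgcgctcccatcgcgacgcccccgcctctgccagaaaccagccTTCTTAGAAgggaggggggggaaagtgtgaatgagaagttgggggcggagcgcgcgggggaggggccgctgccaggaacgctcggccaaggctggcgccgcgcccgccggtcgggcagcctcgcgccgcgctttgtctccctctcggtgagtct

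Genes of the BMP pathway rose, with 13 of 20 called higher (18% of all genes) and 0 lower (13.8%) and a median of 1.99. The 4 Id genes, inhibitors of neurogenic bHLH factors, all rose. Id1 (chromosome 2, 152702960 to 152737629) was at 77.6 and 18.4 CPM in the R9 and 33.7 and 22.7 in the R10 progenitors, and at 730.01 in R9 and 561 and 634 in R10 at day 2 (log2 difference 4.32 ± 0.39 (SE), limma adjusted p = 1.69e-05). Id3 rose from 524 to 652 CPM in progenitors to 3334 to 3716 at day 2, Id2 from 66.4 to 186 CPM in progenitors to 574 to 887 at day 2 and Id4 from 0 to 3.87 CPM in progenitors to 39.6 to 80.1 at day 2. Atoh8, a bHLH gene that BMP receptors induce, rose from 0.953 to 2.67 CPM in progenitors to 124 to 167 at day 2. The inhibitory Smad7 (0 to 2.9 against 7.25 to 9.9 CPM) and the receptor gene Bmpr1a (12.4 to 52.3 against 66.5 to 154 CPM) rose. Smad6, a second inhibitor, and the extracellular antagonist Nog were at 0 in all 4 progenitor libraries, and were at least 20.5-fold and 8.01-fold higher at day 2 with the progenitors at that floor. The bound for Nog was 4.49-fold without R10 day 2 replicate 2. With such genes at their bound the list median was 2.17. Smad1, Smad4 and Smad5, which carry the signal, were not called (0.96, -0.10 and -0.92). Higher calls numbered 12 of 21 without both R10 libraries numbered 2. There, and under quantile normalization, 1 member was called lower, and 2 were under median centring.

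In the TGF-beta list 5 of 15 genes were called higher and 0 lower, beside 18% and 13.8% of all genes, with a median of 0.34. Without the R9 day 2 library 4 were higher, and without both R10 libraries numbered 2, 4 of 15 were higher and 1 lower. The 5 were the ligands Tgfb2 (7.94 to 24.2 against 32.5 to 72.5 CPM) and Tgfb3 (8.02 to 12.6 against 44.6 to 91.3 CPM), the co-receptor Tgfbr3 (0 to 22.4 against 49.5 to 122 CPM) and the latent binding proteins Ltbp2 (0 in all progenitor libraries, at least 26.7-fold higher, or 16.6-fold without the R9 day 2 library) and Ltbp3 (24.5 to 52.2 against 135 to 276 CPM). The receptors Tgfbr1 and Tgfbr2 and the carriers Smad2 and Smad3 had differences of -0.54, -0.21, -0.45 and -0.07. The call of Tgfbr3 was lost without the R9 day 2 library (log2 difference 2.30, limma adjusted p = 0.145) and without both R10 libraries numbered 2 (3.21, limma adjusted p = 0.0576).

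The cells carried neural progenitor markers before and after the change of medium. Of 22 tested genes of that list 9 were called lower and 1 higher, beside 13.8% and 18% of all genes, with a median of -0.74, and the counts were again 9 and 1 of 22 without both R10 libraries numbered 2. Some members linked to the oligodendrocyte and neurogenic lineages fell, while in the separate oligodendrocyte list 2 of 4 genes were higher and 1 lower (median 1.26). Olig2 was at 179 and 237 CPM in the R9 and 147 and 114 in the R10 progenitors, and at 9.9 in R9 and 3.52 and 5.27 in R10 at day 2. Olig1 (185 to 519 against 39.9 to 55.2 CPM), Nkx2-2 (2.01 to 4.01 against 0 to 0.391 CPM), the Notch ligand Dll1 (5.35 to 18.1 against 0 to 0.783 CPM) and the SOXB1 gene Sox3 (14.9 to 45.5 against 0 to 0.659 CPM) fell as well. Nes, the intermediate filament nestin, fell from 193 to 384 CPM in progenitors to 83.5 to 150.3 at day 2. The stem cell factor Sox2 (35.9 to 72.6 against 58.7 to 76.4 CPM), Pax6 (14.7 to 35.9 against 28.3 to 115 CPM), the radial glial lipid binder Fabp7 (2624 to 5207 against 2048 to 4840.3 CPM), Sox9 (28.1 to 115 against 46.7 to 176 CPM) and Notch1 (26.7 to 74.3 against 56.6 to 152 CPM) were not called, with log2 differences of 0.56, 0.84, -0.46, 0.59 and 0.62. Prom1, which encodes the surface protein CD133, was the 1 gene that rose (5.4 to 11.6 against 44.1 to 61.9 CPM).

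Astrocyte genes moved unevenly. Of 21 tested, 11 rose (18% of all genes) and 1 fell (13.8%), with a median of 1.15, and 11 of 21 were higher and 1 lower without both R10 libraries numbered 2. Gfap, the glial intermediate filament (ENSMUSG00000020932.14, chromosome 11, 102885741 to 102900982), was at 1.34 and 0.968 CPM in the R9 and 5.72 and 5.16 in the R10 progenitors, and at 236 in R9 and 3015 and 1056 in R10 at day 2. The day 2 libraries differed widely among themselves, with R10 replicate 2 highest, yet each lay far above every progenitor library (log2 difference 7.59 ± 0.38 (SE), limma adjusted p = 5.61e-07). Aqp4, the astrocyte water channel, held no read in any progenitor library and was at 2.83 in R9 and 19.6 and 37.6 in R10 at day 2, at least 73.9-fold higher with the progenitors set at a floor of 3 reads in all, and 44.7-fold without R10 day 2 replicate 3. These bounds of Aqp4 pool both chemistries. In R9 alone its day 2 level was below the 2.9 to 4.01 CPM that 3 reads make in a progenitor library. Aldoc, Sparc, Itm2b, Mlc1, Nfix, Vim and Fgfr3 rose with Clu and Apoe, Sparc from 597 to 1591 CPM in progenitors to 3171 to 8109 at day 2 and Mlc1, a membrane protein of astrocyte endfeet, from 69.5 to 186 CPM in progenitors to 487 to 1395 at day 2. S100b (-0.87), Aldh1l1 (-1.38), the glutamate transporters Slc1a3 (0.29) and Slc1a2 (0.58), Glul (-0.49) and Hepacam (0.36) were not called. Gja1, connexin 43, was the 1 that fell (33.9 to 78.4 against 4.24 to 75.9 CPM), and its groups overlapped within R10.

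Genes of reactive astrocytes and of the acute-phase response rose broadly, with 18 of 23 called higher (18% of all genes), 1 lower (13.8%) and a median of 2.58. Lcn2, an iron-scavenging lipocalin, was at 0 and 0.968 CPM in the R9 and 0.318 and 0.287 in the R10 progenitors, and at 94.8 in R9 and 48.5 and 115 in R10 at day 2. Serping1, the inhibitor of complement C1 (0 to 0.318 against 53.2 to 84.7 CPM), ceruloplasmin (Cp, 31.1 to 109 against 927 to 2443 CPM), the matrix gene Fbln5 (0 to 0.635 against 27.4 to 143 CPM) and the gp130 cytokine Clcf1 (0 to 0.574 against 29.6 to 56.4 CPM) rose with C3. Complement C4b, the oncostatin M receptor Osmr and the metalloreductase Steap4 were at 0 in all 4 progenitor libraries and at least 55.2-fold, 64.1-fold and 70.3-fold higher at day 2. For C4b the bound was 29.2-fold without R10 day 2 replicate 2, and for Steap4 30.9-fold without R10 day 2 replicate 3. Serpina3n rose with a wide spread at day 2 (0 to 0.287 against 1.41 to 30.1 CPM). Timp1 (0.77), Emp1 (-0.80), S100a10 (0.94) and Ccl2 (0.98) were not called. B3gnt5, a glycosyltransferase, was called lower (5.72 to 9.68 against 0.783 to 7.07 CPM), a call that was lost in 12 alternatives. Of 25 tested without both R10 libraries numbered 2, 18 were higher and 1 lower, which was not B3gnt5 (limma adjusted p = 0.231 there). With the filter kept at 3 libraries only 15 of the list could be tested there, 10 of them higher, since most of these genes are near 0 in progenitors.

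Markers of other cell types were at uneven levels, some at or near 0 and others, such as Emcn, Cnp, Prrx1 and Foxj1, well above it in some libraries. All counts of these lists stand beside 18% of all genes called higher and 13.8% called lower. Of the microglia list 4 of 10 genes are in the table and 1 was tested, Tmem119, which was not called, with summed levels of 0 to 6.78 CPM in progenitors and 0.391 to 25.5 at day 2. Tmem119 was called higher with edgeR (log2 difference 3.42) and, with the filter kept at 3 libraries, without both R10 libraries numbered 2 (2.56). Csf1r was at 0 in all progenitors and at most at 2.83 CPM at day 2. Of the endothelial markers Pecam1 and Cdh5 were below 2 CPM in every library, and Kdr was the 1 of 3 called (1.34 to 2.9 against 5.27 to 12.5 CPM), a call lost without the R9 day 2 library (limma adjusted p = 0.087). Emcn was at 238 and 257 CPM in the R9 and 46.4 and 254 in the R10 progenitors, and at 219 in R9 and 3.91 and 41.8 in R10 at day 2, and was not called. Of 3 endothelial genes 0 were called without both R10 libraries numbered 2. With the filter kept at 3 libraries 1 of 3 was called lower there. Among fibroblast and mural genes 3 of 9 were called higher (18% of all genes), Col1a1 (0.318 to 8.02 against 9.4 to 72.2 CPM), Pdgfrb (0 to 1.34 against 0.391 to 49.5 CPM) and Prrx1 (1.27 to 35.8 against 19.6 to 166 CPM), with summed levels of 22.9 to 288 CPM in progenitors and 79.5 to 498 at day 2, and Col1a2 at 0 throughout. Without both R10 libraries numbered 2, 5 of 9 were called, and 1 was without the R9 day 2 library, where Prrx1 was lost (limma adjusted p = 0.068), and Pdgfrb overlapped between the groups within R10. Oligodendrocyte genes gave 2 of 4 higher, Cnp (48.1 to 66.9 against 115 to 222 CPM) among them, and 1 lower (Cspg4 2.22 to 10.6 against 0 to 0.329 CPM), and 1 of 5 higher and 1 lower without both R10 libraries numbered 2. Of 7 neuronal genes none was called higher and 1 lower, a share near that of all genes, Elavl4, which was at 0 in every day 2 library and in 1 R9 progenitor library. No neuronal gene of 8 was called without both R10 libraries numbered 2. The summed neuronal level was 230 to 397 CPM in progenitors and 147 to 271 at day 2, most of it Map2 (209 to 376 against 112 to 242 CPM), a dendritic cytoskeletal protein that was not called. Foxj1, the master gene of motile cilia and a marker of ependyma, rose from 1.72 to 4.01 CPM in progenitors to 65.9 to 114 at day 2, and the dynein light chain Dynlrb2 from 0.968 to 5.35 CPM in progenitors to 11.3 to 48.1 at day 2, while Pifo and Ccdc153 were at 0 in every library. The part of other cell types in the rises above was not tested.

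Pluripotency genes were low in both groups. Of 18 listed, 6 passed the filter on low values, and 1 was called higher and 1 lower, shares near the 18% and 13.8% of all genes. Klf2 was called higher (0.287 to 7.74 against 1.17 to 28.3 CPM), a call lost without the R9 day 2 library (log2 difference 0.88, limma adjusted p = 0.355) and without both R10 libraries numbered 2 (limma adjusted p = 0.088), and Esrrb lower (2.67 to 5.08 against 0 to 0.988 CPM). Pou5f1 was at 1.34 and 3.87 CPM in the R9 and 0.953 and 0 in the R10 progenitors, and at 1.41 in R9 and 1.17 and 1.32 in R10 at day 2 (log2 difference 0.22, not called). Of 8 genes tested without both R10 libraries numbered 2, 0 were higher and 1 lower. Nanog was below 2 CPM in every library. The summed level of the list was 20.1 to 32.9 CPM in progenitors and 16.4 to 43.9 at day 2.

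Contractile and cytoskeletal genes rose, 12 of 18 tested, with 1 lower and a median of 1.96, beside 18% and 13.8% of all genes, and 11 of 18 with 1 lower without both R10 libraries numbered 2. Acta2, smooth muscle actin, was at 1.34 and 1.94 CPM in the R9 and 0 and 0.287 in the R10 progenitors, and at 236 in R9 and 47 and 107 in R10 at day 2. Tagln (transgelin, 0 to 1.34 against 13.7 to 329.6 CPM), Myl9, a myosin light chain (1.34 to 5.4 against 65 to 388 CPM), Cnn2 (21.3 to 56.5 against 204 to 526 CPM), Tpm1 (101 to 172 against 571 to 1179.9 CPM) and Cald1 (168 to 189 against 716 to 996 CPM) rose with it. For Acta2, Tagln and Myl9 the R9 day 2 library was the highest. Actin genes have near-identical copies, between which counting could split reads. Srf itself had a difference of -0.16 and Zyx of 0.30, and Tagln2 fell (8.26 to 49.5 against 1.17 to 7.07 CPM; limma adjusted p = 0.0652 without the R9 day 2 library). SRF binds CArG boxes, a run of A and T between CC and GG. They stood, on either strand, in the window of 5 of 17 list members (29.4%), beside 1.06% of 9851 genes, and of 3 of the 12 called members. The list was drawn up with SRF in view, so the excess over all genes is no result of these data. Of the 5 windows whose RefSeq start lay within 50 bases of the leading transcript's start 1 held a box, beside 1.05% of 5029. The window of Myl9 is shown as that of the called member with a match and the largest change, with the box in capitals (RefSeq, GRCm38.p6; chr2:156775214-156775463, plus strand), and its leading transcript starts 63 bases before the RefSeq start, downstream of the box. Fhl2, a LIM protein that rose, also holds a box, but inside its leading transcript, which starts 129 bases before the RefSeq start. Fhl2 was at 0 and 2.9 CPM in the R9 and 0.318 and 0.574 in the R10 progenitors, and at 102 in R9 and 1.96 and 8.57 in R10 at day 2, so that R9 held the highest value.
Myl9: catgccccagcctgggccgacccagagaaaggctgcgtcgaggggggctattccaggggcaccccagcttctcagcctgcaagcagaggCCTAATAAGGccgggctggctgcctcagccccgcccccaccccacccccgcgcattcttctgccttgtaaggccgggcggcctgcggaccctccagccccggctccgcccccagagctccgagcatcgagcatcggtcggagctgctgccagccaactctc

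Of 13 tested genes of the YAP and TEAD list, 11 were called higher (18% of all genes) and 0 lower, with a median of 2.76, and 11 of 13 without both R10 libraries numbered 2. Ccn1 (CYR61, a secreted matrix-cell protein; chromosome 3, 145645866 to 145649992) was at 5.35 and 5.81 CPM in the R9 and 5.4 and 7.75 in the R10 progenitors, and at 385 in R9 and 349.6 and 318 in R10 at day 2, so that all day 2 libraries lay within a narrow band (log2 difference 5.64 ± 0.23 (SE), limma adjusted p = 1.48e-07). Ccn2 (CTGF) rose from 1.27 to 5.81 CPM in progenitors to 45.8 to 299.9 at day 2, Thbs1 (thrombospondin 1) from 0.635 to 1.94 CPM in progenitors to 84.9 to 145 at day 2, Amotl2 from 1.72 to 7.62 CPM in progenitors to 95.9 to 200.04 at day 2 and the receptor tyrosine kinase Axl from 2.9 to 17.4 CPM in progenitors to 85.7 to 104 at day 2. Yap1 (-0.28) and Tead1 (0.39) were not called, and Wwtr1, which encodes TAZ, rose (27.6 to 58.1 against 78.3 to 94.8 CPM). Ankrd1 was at 0 in every library.

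Matrix genes rose in 14 of 26 cases and fell in 2, with a median of 1.47, beside 18% and 13.8% of all genes. Of 26 tested without both R10 libraries numbered 2, 13 rose and 2 fell, and without the R9 day 2 library 9 rose. Fn1, fibronectin, was at 17.4 and 35.8 CPM in the R9 and 41.3 and 42.5 in the R10 progenitors, and at 648 in R9 and 1066 and 829.8 in R10 at day 2. Bgn (biglycan, 0 to 1.43 against 23.9 to 79.2 CPM), Timp2 (15.9 to 92.9 against 377 to 1029.9 CPM), Timp3 (5.81 to 22.7 against 77.9 to 117 CPM), the basement membrane chains Col4a1 (36.5 to 112 against 51.3 to 1112 CPM), Col4a2 (14.9 to 47.4 against 65 to 495 CPM) and Lamc1 (32.1 to 57.1 against 119.8 to 231 CPM) and the crosslinking enzyme Loxl1 (0.635 to 12 against 8.22 to 87.7 CPM) rose. Loxl1 and Postn overlapped between the groups within a chemistry, and Col4a1, Col6a1 and Tnc only when the chemistries are pooled. The same holds in other lists for the called genes Ccnd2, Cdkn1b, Cdkn2c, B3gnt5, Cd109, Fgfr3, Nfix, Jak2, Dusp4, Spred1, Fhl2, Fasn, Hmox1, Prrx1 and Klf2, none of which overlapped within a chemistry. Vcan (versican, 40.1 to 120.03 against 1.41 to 8.22 CPM) and Tnc (tenascin C, 366 to 1088 against 245 to 509 CPM), both matrix proteins of progenitors, fell, Tnc by less than the threshold without R10 day 2 replicate 3 (-0.90). With reads thinned to the shallowest library 9 members were called higher, and under median centring 10.

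Genes of sterol synthesis fell almost throughout, 22 of 24 (13.8% of all genes) with none higher and a median of -2.48, and 22 of 24 without both R10 libraries numbered 2. Insig1, a sterol sensor that SREBP2 induces (chromosome 5, 28071355 to 28078662), was at 222 and 382 CPM in the R9 and 539 and 605 in the R10 progenitors, and at 26.9 in R9 and 65.4 and 21.4 in R10 at day 2 (log2 difference -3.69 ± 0.34 (SE), limma adjusted p = 2.05e-05). Fdps, which makes farnesyl diphosphate, fell from 252 to 455 CPM in progenitors to 22.4 to 41.5 at day 2. Srebf2, the regulator of the pathway, fell less (-1.45), and Sqle (-0.54) and Ebp (-0.50) were not called. SREBP binds sterol elements, here TCACNCCAC, which 1 of 17 members with a window held on either strand within 250 bases (5.88%), beside 0.914% of all. The list was chosen with earlier results known and the share rests on 1 gene, so the excess is no result of these data. The gene is Hmgcs1, HMG-CoA synthase, which fell from 544 to 1137 CPM in progenitors to 185 to 301 at day 2 (RefSeq, GRCm38.p6, chr13:119690101-119690350, plus strand, with the match in capitals). Its leading transcript starts 43 bases after the RefSeq start.
Hmgcs1: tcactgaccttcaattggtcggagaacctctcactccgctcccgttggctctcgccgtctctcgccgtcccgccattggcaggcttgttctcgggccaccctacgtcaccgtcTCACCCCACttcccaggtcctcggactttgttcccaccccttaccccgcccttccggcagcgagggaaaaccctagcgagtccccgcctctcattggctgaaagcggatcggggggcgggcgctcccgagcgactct

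Fatty acid synthesis fell with it, in 9 of 18 genes of the list, beside 13.8% of all genes, while 3 rose, below the 18% of all genes. The counts were again 9 lower and 3 higher of 18 without both R10 libraries numbered 2. Fasn, fatty acid synthase (124 to 873 against 32.5 to 202 CPM), the desaturases Scd1 (254 to 339 against 66.5 to 129 CPM) and Scd2 (823 to 1172 against 151 to 292 CPM), Acaca (33.9 to 81.6 against 8.49 to 18.8 CPM), Fads1 (216 to 257 against 58 to 72.4 CPM) and the elongase Elovl6 (102 to 186 against 5.66 to 10.2 CPM) were among those that fell. Scd1 and Fasn, which fell, and the 3 risers are all known as targets of LXR, the receptor of oxidised sterols. The risers were Apoe, the cholesterol exporter Abca1 (0.318 to 1.94 against 22.6 to 44.2 CPM) and Mylip, a ubiquitin ligase (0 to 1.34 against 2.64 to 8.49 CPM; limma adjusted p = 0.116 without the R9 day 2 library). Nr1h2 and Nr1h3, which encode LXR, had differences of 0.53 and 1.74 and were not called, and Abcg1 was too low to be tested.

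Stress genes did not move as 1 block. In the ATF4 list 9 of 23 were lower and 3 higher, beside 13.8% and 18% of all genes, and 9 and 2 of 23 without both R10 libraries numbered 2. Atf4 (169 to 298 against 70.5 to 100.4 CPM), the mitochondrial folate enzymes Mthfd2 (53.2 to 158 against 2.35 to 4.94 CPM) and Shmt2 (73.6 to 221 against 24.1 to 41.2 CPM), the amino acid transporter Slc7a5 (31.9 to 103 against 7.44 to 12.8 CPM) and the mitochondrial chaperones Hspd1 (833 to 1562 against 184 to 261 CPM) and Hspe1 (909 to 1509.9 against 253 to 302 CPM) fell, and Atf3 (0.953 to 2.9 against 7.05 to 10.2 CPM) and Ddit3 (6.6 to 19.4 against 23.4 to 42.4 CPM) rose. Metallothioneins Mt2 (49.5 to 151 against 800.2 to 2296 CPM) and Mt3 (44.5 to 206 against 1471 to 3071 CPM), which bind zinc and copper, rose and Mt1 had a difference of 0.73. These genes are close copies of each other, so that the split of reads between them is uncertain. In their list of 12 tested genes 4 were higher (18% of all genes), with extracellular superoxide dismutase Sod3 (1.91 to 5.35 against 71.2 to 255 CPM) and Hmox1 (28.6 to 92 against 91.6 to 314 CPM), and 1 lower, Txnrd1 (73.6 to 187 against 56.3 to 68.1 CPM; -0.94 without R9 progenitor replicate 2, and limma adjusted p = 0.0767 without both R10 libraries numbered 2 and 0.0561 without the R9 day 2 library), beside 13.8% of all genes. None of the 7 tested genes of the mitochondrial genome was called, also without both R10 libraries numbered 2, with log2 differences from -0.70 to 0.76. Among interferon and MHC class I genes 8 of 19 were higher and 1 lower, beside 18% and 13.8% of all genes, and 10 and 1 of 20 without both R10 libraries numbered 2. Ifitm1 (1.27 to 10.7 against 45 to 195 CPM), Ifitm3 (4.76 to 36.1 against 132 to 382 CPM), Irf9 (3.44 to 5.81 against 25.5 to 35.6 CPM) and the peptide-loading gene Tapbp (2.67 to 8.26 against 41 to 72 CPM) rose and Ly6e fell (50.3 to 116 against 5.66 to 7.91 CPM), while Isg15 (1.17) and B2m (0.68) were not called. Ifitm genes too are close copies, with an uncertain split of reads.

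Of 840 annotated lncRNA genes tested, 243 were called higher and 64 lower (36.5% called), beside 2119 higher and 1691 lower of 11809 protein-coding genes (32.3%) and 31.8% of all genes. Which class had the larger share depended on the setting. The shares called of lncRNA and protein-coding genes were 22.6 and 26.6% without both R10 libraries numbered 2, 23.4 and 26% without the R9 day 2 library, 29 and 31.2% with DESeq2, 22.9 and 27.6% with thinned reads, 17.7 and 27.7% with no filter and 53.2 and 32.5% at a CPM of at least 5. Neat1, the RNA of nuclear paraspeckles (chromosome 19, 5824708 to 5845870), was at 0 and 0 CPM in the R9 and 13.7 and 4.02 in the R10 progenitors, and at 149.96 in R9 and 1702 and 188 in R10 at day 2. R10 day 2 replicate 2 stood far above the other day 2 libraries, and Malat1 and Meg3 were highest in the same library. Gm14866 (chromosome X, 100737749 to 100738893) rose from 0 to 1.94 CPM in progenitors to 85.7 to 205 at day 2 and Gm30613 (chromosome 5, 15535506 to 15648261) from 0 to 4.84 CPM in progenitors to 108 to 218 at day 2. Gm29521 (chromosome 9, 101770369 to 101862678) was at 44.1 and 20.3 CPM in the R9 and 16.2 and 28.1 in the R10 progenitors and at 0 in all 3 day 2 libraries, at least 50.6-fold lower with that group at the floor of 3 reads. Also lower were 2010204K13Rik (89.1 to 158 against 2.83 to 6.26 CPM) and 2610203C22Rik (14.6 to 33.9 against 0 to 0.783 CPM). In the list of known lncRNAs 6 of 18 were higher (18% of all genes), Firre, Dleu2 and Sox2ot among them (the groups of Firre overlapped within R10), and 3 lower (13.8% of all genes, a share near theirs): Pantr1, which lies beside Pou3f3 (309 to 654 against 90.4 to 113 CPM), Snhg6 (154 to 344 against 54.8 to 94.8 CPM) and Snhg12 (54.8 to 84.5 against 18.4 to 39.6 CPM). Without both R10 libraries numbered 2 these counts were 5 and 2 of 18, and the calls of Meg3 and Snhg12 were lost. Lower calls numbered 5 under median centring and, with the filter kept at 3 libraries, 6 without the R9 day 2 library.

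Unannotated genes assembled by the authors gave 201 higher and 93 lower of 1084 tested (27.1% called, 18.5% higher and 8.58% lower), beside 31.8%, 18% and 13.8% of all genes. Of 1150 tested without both R10 libraries numbered 2, 138 were higher (12%) and 45 lower (3.91%), beside 2083 and 1659 of 15042 genes in all. The largest rise was that of novelGene_31512 (chromosome 5, 15499299 to 15507069), with no read in the progenitors, and with CPM of 59.4 in R9 and 541 and 85.3 in R10 at day 2, at least 749-fold higher with the progenitors set at a floor of 3 reads in all. That value pools R9 and R10 and rests on R10 day 2 replicate 2, without which the bound was 225-fold. Its 1 transcript is intergenic, has 2 exons and spans 2467 bases of RNA. That transcript was at 2.92 TPM (a level per length) in R9 and 26.5 and 5.83 in R10 at day 2. These values lie far below the CPM of the gene, and how many of its reads belong to the transcript was not tested. The gene lies near Gm30613 on the same chromosome. novelGene_Hspb8_AS, named as antisense to the heat shock gene Hspb8, rose from 0 to 0.287 CPM in progenitors to 25.1 to 36.8 at day 2. Those named as antisense to Spry4 and Hip1 fell, 18.7 to 65.7 against 0.783 to 3.95 CPM and 34.8 to 79.4 against 4.24 to 7.91 CPM. Strand use in counting is not given in the sources used here, so values of antisense genes are uncertain.

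The leading transcript, here the one with the highest mean TPM in the group with the higher level, matched an annotated transcript at every splice site for 6 of the 10 largest rises and 6 of the 10 largest falls. TPM is a transcript level per length, as deposited. Gfap was led by a match of 9 exons and 2968 bases with 52.0 to 56.8% of the TPM of the gene in the 3 day 2 libraries, Ccn5 by 1 of 5 exons with 75.6 to 79.3%, and Lcn2 by 1 of 6 exons with 93.8 to 96.7%. Clu was split further, its leader holding 12.7 to 37.9%. The transcripts of Crygs together held 61.8 TPM in R9 and 2.68 and 13.3 in R10 at day 2. The gene was there at 325 CPM in R9 and 82.2 and 330 in R10. The leaders of C3 (499 bases, 3 exons), Top2a (221 bases, 2 exons) and Mki67 (481 bases, 2 exons) were fragments that match part of a longer annotated transcript.

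The same 2 days were then set beside those of the OKMS and OKS lines, which share no library with the wild-type groups. The fit holds 1 common day 2 change for OKMS and OKS, so these lines count as replicates of each other in it. They were unlike, with 1069 called differences from wild type for OKMS alone and 38 for OKS alone. In the common change 3447 of 17122 genes were called (20.1%), 13.7% higher and 6.43% lower. Of the 2639 genes called higher in wild type, 2574 had the same sign there and 1568 were called in the same direction, and of the 2031 lower ones 1927 and 805. Across 14674 genes, which are not independent, the wild-type and factor line differences had a Pearson r of 0.83. A called difference between wild type and factor lines was found for 278 genes (1.62%), 257 with a higher value in the factor lines (1.5%) and 21 lower (0.123%). Leaving out single libraries gave 131 (without the OKMS R10 progenitors) to 419 (without the OKS R10 day 2 cells). Each line has its own baseline in each chemistry. Leaving out the progenitor or the day 2 library of OKMS or OKS there therefore takes both out of the estimate. Such fits give the same differences, and counts of alternatives below include both. Line, transfection, luciferase element and factors cannot be told apart in the difference between wild type and factor lines. In R10, mitochondrial reads were 0.153 to 0.319% of reads in wild type and 1.08 to 1.64% in the factor lines, and in R9 0.493 to 0.884% and 0.557 to 0.727%. The part of this in the difference was not tested.

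Mitotic genes fell less in the factor lines. Of 37 mitosis genes 36 had a called difference, each with a smaller fall in the factor lines, and of 34 DNA replication genes 21, beside 1.5% of all genes higher in the factor lines. For replication the count was 30 with the OKMS line alone, 3 with the OKS line alone, 1 with R9 alone and 0 with R10 alone. The median difference between lines was 3.63 for mitosis, with a median fall of 5.26 in wild type and of 1.61 in the change common to OKMS and OKS. The summed mitosis level went from 6162 to 3525 CPM in R9 and from 6508 to 3988 in R10 in the OKMS line, from 6017 to 1227 and from 6280 to 883 in the OKS line, and to 183 to 214 in wild type. Ube2c went from 462 to 254 CPM in R9 and 503 to 271 in R10 in the OKMS line, and from 459 to 78.9 in R9 and 479 to 39.6 in R10 in the OKS line. OKS therefore lay between wild type and OKMS in both chemistries, a comparison of 1 library each. With the OKMS line alone 37 mitosis genes were called, with the OKS line alone 17, with R9 alone 12, and with R10 alone 0, where limma called 0 of 15345 genes and 1390 had an unadjusted p under 0.05. Ccnd1 (1.63 ± 0.39 (SE), limma adjusted p = 0.0408) and Myc (2.64 ± 0.49 (SE), limma adjusted p = 0.00799) also differed between the lines, and the call of Ccnd1 was lost in 19 of 27 alternatives and that of Myc in 3, R10 alone, R9 alone and the OKS line alone. Reads of the introduced Myc of the OKMS line may be counted on that gene. With the OKS line alone the Myc difference was 1.75 and was not called. The part of such reads in the difference was not tested.

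**Figure D4:**
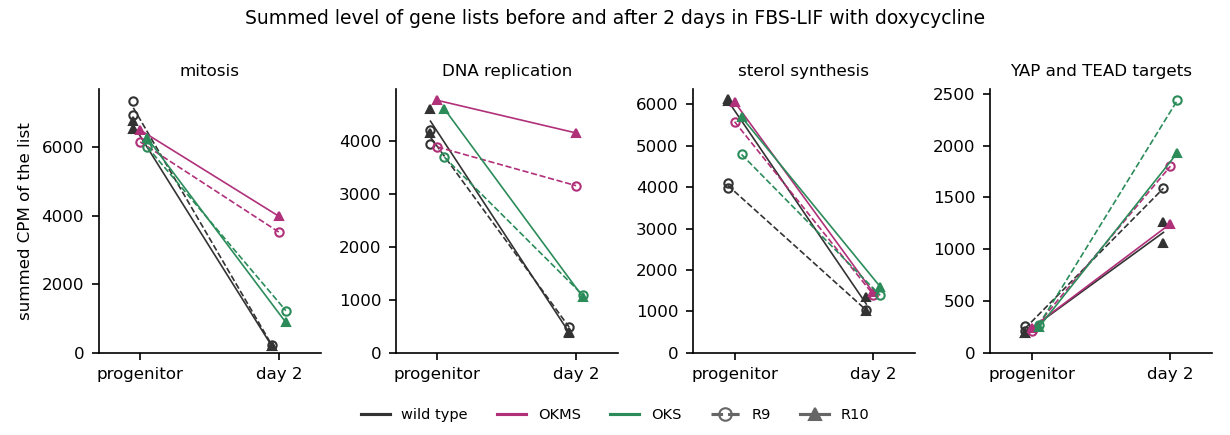
Summed CPM of 4 gene lists in progenitors and at day 2 for wild type (black), OKMS (magenta) and OKS (green), with R9 as open circles and dashed lines and R10 as triangles and solid lines. Lines join group means. At day 2 the mitosis sum is 183 to 214 CPM in wild type, 883 to 1227 in OKS and 3525 to 3988 in OKMS, while the sterol sums of the 3 lines lie between 1001 and 1594.

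Other lists held fewer called differences between the lines, but some shares exceeded the 1.5% higher and 0.123% lower of all genes. Higher in the factor lines were 3 of 26 reactive, 2 of 26 G1, 2 of 23 progenitor identity, 2 of 20 actin and 2 of 11 pluripotency genes. The ERK, fatty acid, interferon and oligodendrocyte lists each held 1. Lower were 2 of 26 reactive, 1 of 21 astrocyte and 1 of 16 TGF-beta genes. Rbl1 differed by 1.76, a call lost in 16 of 27 alternatives. With the OKMS line alone 4 of 21 astrocyte genes were called lower and 5 of 23 ATF4 genes higher. With both lines these counts were 1 and 0. Of 16051 genes in all, 881 were higher and 188 lower with the OKMS line alone. Of the sterol list 0 of 24 genes differed by this test (22 were lower in the factor lines too), with a median difference of 0.46. Of the YAP and TEAD list 0 of 13 differed (10 higher in the factor lines), with a median of 0.10, and of the BMP list 0 of 20 (12 higher), with a median of -0.30. In the LIF list 1 of 24 differed, Klf4, on which reads of an introduced factor may be counted. Insig1 had a difference between lines of 0.94 ± 0.41 (SE) and Ccn1 of -0.19 ± 0.38 (SE). A missing call does not show that the lines act alike, since a gene needed a difference of at least 1. The mean Gfap rise was 6.80 in the factor lines and 7.59 in wild type, and the difference of -0.79 ± 0.59 (SE) was not called. The called differences among glial, reactive and TGF-beta genes were lower in the factor lines for Mlc1 (-1.37), C3 (-2.15), Cp (-1.40) and Ltbp3 (-1.25), beside 0.123% of all genes, and higher, beside 1.5%, for the secreted inhibitor of metalloproteases Timp1 (1.87), Emp1 (2.41) and Cd109 (1.81). All 7 calls were lost with R10 alone, R9 alone and the OKS line alone, with every sign kept. Over 27 alternatives the call was lost in 19 for C3, 16 for Mlc1, 10 for Ltbp3, 9 each for Emp1 and Cd109, 8 for Timp1 and 5 for Cp.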

How the data were processed

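The authors deposited gene levels as CPM and transcript levels as TPM, 1 column a library, and the names of both tables mention IsoQuant. The submitters' processing notes name minimap2 2.24-r1122 and mm10. Filters and strand use in counting are not given in the sources used here. Transcript lengths, exons and categories came from the deposited classification table, and coordinates (outer bounds of a gene's transcripts, 1-based) from the deposited annotation, of whose genes placed in both annotations 99.9% overlapped their GRCm38 position.

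Whole reads and depth were recovered from the deposited CPM steps, with 100% of the values above 0 whole to within 0.02 reads. A further 13 columns with no sample of their own were not used, and 20 genes had no readable name. Only samples mapped by labels entered, with RIN of at least 7.8 per the labels.

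Genes with a CPM of at least 1 in as many libraries as the smaller group (3 in the 7-library fit and in that with the OKMS and OKS lines, 2 in R10, 1 in R9, and kept when single libraries were left out unless stated) were tested as log2(CPM + 1) by a two-sided moderated test (limma 3.58.1, R 4.3.3, trended variance), with chemistry as a term. This scale understates the change of low genes. The comparison with the OKMS and OKS lines was an interaction over 15 libraries with no library shared between the arms and 1 common day 2 term for OKMS and OKS. Counts recovered from the deposited CPM went into edgeR 4.0.16 and DESeq2 1.42.0 as alternatives. The fits were run on simulated data with large changes in well-expressed genes and no replicate effect. That run does not show how they perform on these data. Python 3.11.15 was used for the rest.

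Named were the 10 largest rises and falls without overlap, up to 3 rises and 3 falls per list with its defining markers, 3 and 3 annotated lncRNA genes, 2 and 2 unannotated genes, and the 5 largest differences between lines each way. Further list members were named after their values were seen, and a few are not reported here. The members and the lists were chosen with earlier results of these data known. Promoter windows and motifs came from RefSeq on GRCm38.p6.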

Additional observations from a re-analysis of the deposited data

Results flagged for a closer look

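Of the genes whose day 2 change differed between wild type and the factor lines by an interaction test, the 5 most positive and 5 most negative are given, as factor lines minus wild type on the log2 scale, with limma adjusted p. Fetub, which encodes the secreted protein fetuin B (chromosome 16, 22917379 to 22942678), differed by 6.43 (adjusted p = 0.00013), and was at 1.34 CPM or less in every wild-type library but went from 0 to 144 CPM in R9 and 8.79 to 145 in R10 in the OKMS line, and from 0 to 132 in R9 and 4.67 to 319 in R10 in the OKS line. Actg2, enteric smooth muscle actin, differed by 5.17 (adjusted p = 0.00053) and stayed below 1 CPM in every wild-type library. Neither call was kept by edgeR (adjusted p = 0.216 and 0.977) or DESeq2 (0.081 and 0.215). Pou5f1 differed by 4.86 (adjusted p = 0.000467), and reads of the introduced factor may be counted on it. Pclaf differed by 5.35 (adjusted p = 7.91e-05) and Ube2c by 4.94 (adjusted p = 6.00e-05), both with a smaller fall in the factor lines.

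The 5 negative differences, of genes with a larger mean rise in wild type, depend on the setting. Over 27 alternatives the call was lost in 20 for Nppc, 16 for Casp12, 15 for Upp2, 12 for Il1r1 and 4 for Myh8. Of the 15 fits that leave out 1 library, 13, 9, 10, 8 and 0 lost it in the same order. Those for OKMS and OKS are not all distinct. Leaving out the progenitor or the day 2 library of a line and chemistry gives the same difference. All 5 calls were lost with R9 alone and with the OKS line alone. Myh8, a perinatal myosin heavy chain (chromosome 11, 67276962 to 67308634), was at 0 and 0 CPM in the R9 and 0.318 and 0.574 in the R10 progenitors, and at 17 in R9 and 182 and 71.8 in R10 at day 2 in wild type, and went from 2.69 to 4.52 CPM in R9 and 0 to 3.16 in R10 in the OKMS line, and from 3.37 to 16 in R9 and 2.92 to 21.3 in R10 in the OKS line (difference -3.69, adjusted p = 0.0109). Nppc, which encodes C-type natriuretic peptide, was at 0 to 1.94 against 19.8 to 151 CPM in the wild-type progenitors and day 2 cells (difference -3.39, adjusted p = 0.0375). Il1r1, the receptor of interleukin 1, differed by -2.42 (adjusted p = 0.0271), Casp12, an inflammatory caspase, by -2.51 (adjusted p = 0.0314) and Upp2, a uridine phosphorylase, by -2.54 (adjusted p = 0.0284). With R10 alone none of these 10 kept its call, with adjusted p from 0.0911 to 0.49, while each kept its sign.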

How the results depend on the processing

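Of 109 named genes none changed sign in any alternative run in which it could be tested, and 16 lost their call in at least 1 of them (80 values). The 10 named differences between wild type and factor lines kept their sign where tested, and 77 of their values lost the call. A gene that failed the filter in a run was counted there neither as kept nor as lost. The 7-library count ran from 3346 to 4639 when single libraries were left out and from 3795 to 5093 under other settings, was 4626 under quantile normalization and 4793 under median centring, and was 3742 without both R10 libraries numbered 2 with the filter at 2 libraries (3514 at 3). Leaving out single day 2 libraries with the filter at 2 gave 3779 to 4508. These were chosen after seeing the data. The median of all genes moved from 0.116 to -0.068 under median centring, and the higher share of calls from 56.5% to 46.6% (48.7% under quantile normalization). All 37 mitosis genes were called lower under every setting. Within R10, leaving out single libraries gave 1253 to 4492 calls, 1253 without progenitor replicate 3 and 1356 without progenitor replicate 2. With the replicate block, the 7-library count was 4860 and the R10 count 5605. Across genes, the deviations of R10 replicate 2 from replicate 3 correlated between progenitors and day 2 (r = 0.459 over 14674 genes), but with only 2 shared numbers and no label of a common source the libraries were not treated as pairs.

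Within R9 the 1562 calls became 299 at a CPM of at least 5, 248 under median centring, 2577 with edgeR, 805 with DESeq2 and 2995 with the OKMS and OKS progenitors added. The difference between the chemistries was called for 0 genes in all alternatives run. The 278 genes that differed between wild type and factor lines became 137 with reads thinned to the shallowest library, 0 with R10 alone (1390 at an unadjusted p under 0.05), 18 with R9 alone, 1069 with OKMS alone and 38 with OKS alone. Leaving out single libraries gave 131 to 419. For OKMS and OKS, leaving out the progenitor or the day 2 library of a chemistry gives the same estimates. The count fell by over 1.5 times without the R9 day 2 cells (164), R10 progenitor replicates 2 and 3 (158 and 179) or R10 day 2 replicate 3 (184) of wild type, and without the OKMS R9 progenitors (145), R9 day 2 cells (148), R10 progenitors (131) or R10 day 2 cells (133). It rose by over 1.5 times without the OKS R10 day 2 cells (419). Leaving out a library could not be fitted within R9, nor leaving out the R9 day 2 library in the test of the chemistries. That test rests on this 1 library, so its lack of calls does not show that the chemistries agree. At R9 depth 1 read was worth 0.968 to 1.41 CPM, against 0.287 to 0.391 in R10, which limits low genes there.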
